A study of Mus musculus with 12 samples.

Results

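The comparison is between 3 libraries of cortical thymic epithelial cells (cTEC) with a FoxN1-Cre transgene, numbered 10, 11 and 12, and 3 control cTEC libraries, numbered 7, 8 and 9. These are 6 of the 12 libraries of the series, taken by the cell type and genotype in their labels. All 31332 genes of the count table entered, and 17268 had enough counts to be tested. Every library came from sorted thymic cells of C57BL6/J mice aged 2 months. All 12, controls included, carried floxed alleles of both liver X receptor (LXR) genes, LXR alpha (Nr1h3) and LXR beta (Nr1h2). Only the Cre groups carried FoxN1-Cre, so an effect of the transgene itself and an effect of receptor loss cannot be told apart here. Whether a group's libraries are from separate animals is not in the labels, so p-values measure the spread between libraries. The other 6 libraries, medullary epithelial cells (mTEC) of both genotypes, served to estimate the spread and as a reference.

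LXRs are nuclear receptors that bind oxysterols and, with retinoid X receptors, switch on genes of cholesterol efflux and fatty acid synthesis. Sterol synthesis itself is driven by SREBP proteins, which are held back when sterols are plentiful. The cortical epithelium of the thymus depends on the factor Foxn1, provides Notch ligand, chemokines and cytokines to immature thymocytes, and makes the peptides on which they are positively selected.

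The floxed genes came first as a check of the labels. Nr1h2 stood at 168, 157 and 191 CPM (counts relative to the scaled library total) in control libraries 7, 8 and 9, and at 119, 102 and 123 CPM in Cre libraries 10, 11 and 12. The groups did not overlap, and library 11 was the lowest of the 6 (edgeR log2 fold change -0.58 with SE 0.13, adjusted p = 0.00566). Nr1h3 was low, at 5.97 to 10.7 CPM in the control libraries and 7.53 to 9.47 CPM in Cre, and did not pass (adjusted p = 0.869). Counts over a whole gene keep reads from outside a floxed part, so neither level measures deletion. For Foxn1, the gene after which the driver is named, levels were 270, 353 and 328 CPM in the control libraries and 73.1, 164 and 94.4 CPM in Cre libraries (edgeR log2 fold change -1.53 with SE 0.36, adjusted p = 0.00851; 0.131 with the robust fit). Library 11 kept the most Foxn1 of the Cre libraries.

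The cTEC label held against markers in all 6 libraries. Psmb11, the thymoproteasome subunit that marks cTEC, was at 253 CPM or more in each, against at most 18.9 CPM in control mTEC. The summed level of 15 mature mTEC markers was 121 to 135 CPM in the control libraries and 175, 158 and 128 CPM in Cre libraries 10, 11 and 12, against 2380 to 3320 CPM in the mTEC libraries. Of these markers Fezf2, Tnfrsf11a and Cd40 rose, 1 fell and 11 did not pass, beside 5.62% higher and 3.38% lower over all tested genes. The median log2 fold change of the markers was -0.75 with 5 of 15 positive, and 7 were lower without library 11. Sums of 18 thymocyte markers overlapped between the groups (277 to 436 and 299 to 350 CPM). Fibroblast markers, 12 in number, summed to 254 to 310 CPM in the control libraries and 255, 480 and 403 CPM in Cre, with a median log2 fold change of -0.22 and 5 of 12 positive. Hemoglobin and other erythroid markers, 8 in number, summed to 6.71 to 12.8 CPM in the control libraries and 75.4, 29.9 and 10.8 CPM in Cre. Library 11 had the fewest counts of the series, 4804697, where the others ran up to 11159013, and yet the most genes with a count (27001). Its share of counts in untested genes was 0.687%, against 0.182% to 0.443% in the other libraries.

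Of the 17268 genes, 1555 were called at an adjusted p under 0.05 (9.01%), 971 higher in Cre cTEC (5.62%) and 584 lower (3.38%). At least a 2-fold change was seen for 183 higher (1.06%) and 174 lower (1.01%) genes. Groups without overlap were found for 3491 genes (20.2%), and 1459 of them were also called (8.45%). At an unadjusted p under 0.05 there were 3434 (19.9%). The count of calls moved with single libraries: it was 1022 without library 7, 1018 without library 9, 1019 without library 10 and 2294 without library 11 (1436 higher, 8.18%, and 858 lower, 4.89%). The median transcript length of genes called higher was 5714 bases, against 3261 for all tested genes and 2962 for those called lower. In libraries 10, 11 and 12 the longest 25% of genes stood 0.13, 0.17 and 0.04 above the control mean on the log2 scale. The shortest 25% stood at -0.07, -0.16 and 0 on that scale, so the split by length was widest in library 11. Controls 7, 8 and 9 were each set against the mean of the other controls. Their longest 25% stood at 0.04, 0.01 and -0.05 and their shortest 25% at -0.1, 0.06 and 0.06. Control library 7 thus split in the same direction as the Cre libraries, and libraries 8 and 9 in the other. The part of these shifts in the calls and in the levels of library 11 was not tested. Of the genes called higher, 729 (75.1%) had a higher mean in mTEC than in cTEC of the control genotype, against 47.7% of all tested genes and 32.2% of those called lower. The part of mTEC RNA in these calls was not tested.

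Many lipid genes fell, and did so in all 3 Cre libraries. Of 20 tested LXR targets 10 fell and 10 did not pass, with a median log2 fold change of -0.71 beside -0.02 over all genes (background of calls lower 3.38%). Of 24 tested genes of cholesterol synthesis and uptake 17 fell and 7 did not pass, also with a median of -0.71. Of 25 genes of fatty acid synthesis, elongation and desaturation 9 fell and 16 did not pass, with a median of -0.28. The cholesterol count was 10 without control library 9 and between 13 and 19 without another library. Scd2 and the other leading targets were part of the earlier results from which the lists were drawn, so the counts are descriptions.

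Among the targets, the desaturase gene Scd2 read 394, 570 and 613 CPM in the control libraries and 30.5, 30.3 and 32.9 CPM in Cre libraries 10, 11 and 12. The groups lay far apart, and library 11 was close to the other Cre libraries (edgeR log2 fold change -4.07 with SE 0.17, adjusted p = 2.13e-11). Abcg1, a sterol efflux transporter, was at 62.5, 82.6 and 72.9 CPM in the control libraries and at 3.57, 5.98 and 4.08 CPM in Cre. Its relative Abca1, which loads cholesterol onto apolipoprotein A-I, was at 96.2, 96 and 84.6 CPM and at 21.8, 28.2 and 16.5 CPM. For both transporters library 11 was the highest Cre library and still far under the lowest control. Srebf1, the SREBP gene of fatty acid synthesis, went from 278, 460 and 598 CPM to 138, 103 and 128 CPM (edgeR log2 fold change -1.85 with SE 0.19, adjusted p = 7.5e-06).

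Sterol synthesis genes followed the same order. Fdft1, squalene synthase, read 27.9, 50.8 and 61.6 CPM in the control libraries and 13.9, 8.88 and 10.1 CPM in the Cre libraries (edgeR log2 fold change -2.07 with SE 0.22, adjusted p = 1.04e-05). Control library 7 was the lowest control for Scd2, Srebf1, Fdft1, Fdps, Sc4mol and Cyp51. Summed over the cholesterol list, the controls 7, 8 and 9 held 1100, 1440 and 1620 CPM and the Cre libraries 910, 663 and 784 CPM, so the groups stayed apart and library 11 was the lowest of the 6. Fdps, farnesyl diphosphate synthase, fell by 1.80 on the log2 scale (SE 0.29). Of the fatty acid genes outside the target list, Mid1ip1, an activator of acetyl-CoA carboxylase, fell by 2.40 (SE 0.19), Fads2, a desaturase of polyunsaturated fatty acids, by 1.77 (SE 0.24) and Acsl3, an acyl-CoA synthetase, by 1.56 (SE 0.12). The groups did not overlap for any of these genes.

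**Figure D1:**
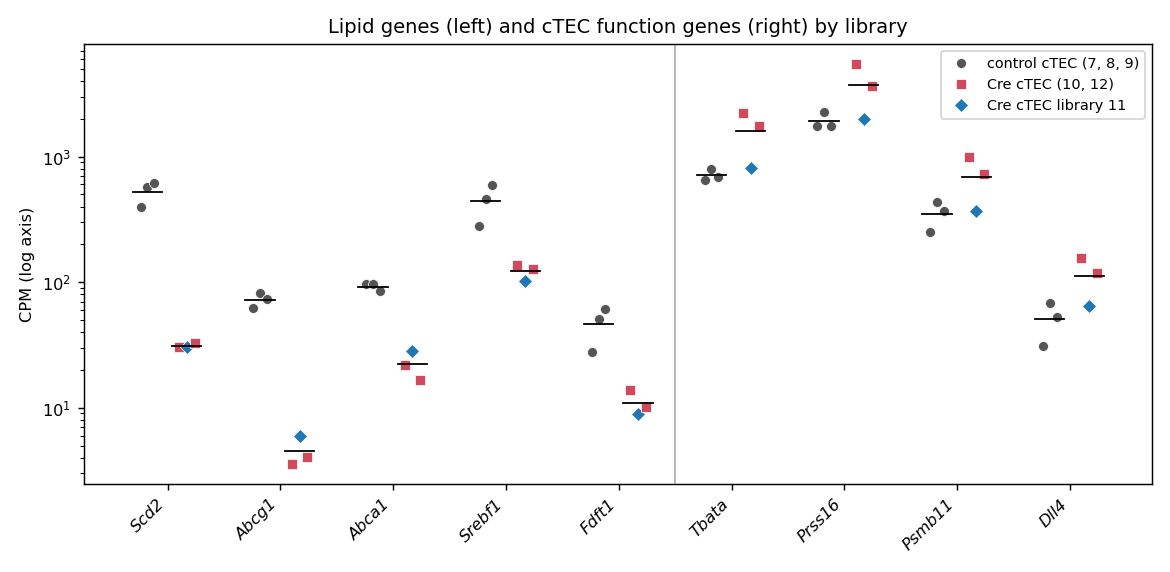
Levels in CPM (log axis) of 5 lipid genes and 4 genes of cTEC function in the 6 cTEC libraries; each point is a library, bars are group means, and library 11 is the diamond. Library 11 lies with the other Cre libraries for the lipid genes (Scd2 at 30.3 CPM) and with the controls for Tbata (817 CPM), Prss16, Psmb11 and Dll4.

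The start regions of the sterol enzymes bear on genes that moved together, so they were searched for known motifs in the RefSeq windows (GRCm38.p6, 250 bases before to 50 after the start, both strands). Windows were found for 13166 tested genes, for 16 of the 24 cholesterol genes and for 5 of the 10 LXR targets that fell. The CCAAT box, the site named after these 5 letters and bound by NF-Y, was in a window of 15 of the 16 cholesterol genes (93.8%), of 10 of the 11 among them that fell (90.9%), and of 42.2% of all tested genes with a window. Among genes called lower the share was 44.3%, and among genes called higher 35.3%. The sterol regulatory element core, searched as TCACNCCAC, was in none of the 16 cholesterol genes and in 1.53% of the tested genes. The 4 sequences are shown because the box was common to the group; they belong to the 4 called cholesterol genes with the smallest p among those with a CCAAT window, chosen after the values were seen. Each is the 250 bases before the start, 5′ to 3′ on the gene's strand, with CCAAT or its reverse ATTGG in capitals.
Sc4mol: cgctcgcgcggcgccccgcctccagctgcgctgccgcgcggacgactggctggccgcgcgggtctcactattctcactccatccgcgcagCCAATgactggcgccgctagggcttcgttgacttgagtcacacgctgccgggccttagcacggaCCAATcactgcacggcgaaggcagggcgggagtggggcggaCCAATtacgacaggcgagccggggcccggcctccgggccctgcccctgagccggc
Cyp51: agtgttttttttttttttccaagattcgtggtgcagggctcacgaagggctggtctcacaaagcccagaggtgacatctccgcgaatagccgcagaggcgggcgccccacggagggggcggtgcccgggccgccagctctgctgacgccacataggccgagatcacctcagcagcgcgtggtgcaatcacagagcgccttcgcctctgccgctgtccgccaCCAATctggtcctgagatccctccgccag
Insig1: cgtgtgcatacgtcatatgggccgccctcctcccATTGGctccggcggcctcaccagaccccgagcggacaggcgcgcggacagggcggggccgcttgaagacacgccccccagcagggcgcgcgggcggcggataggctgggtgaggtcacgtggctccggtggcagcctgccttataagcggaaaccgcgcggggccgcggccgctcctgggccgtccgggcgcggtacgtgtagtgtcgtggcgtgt
Hsd17b7: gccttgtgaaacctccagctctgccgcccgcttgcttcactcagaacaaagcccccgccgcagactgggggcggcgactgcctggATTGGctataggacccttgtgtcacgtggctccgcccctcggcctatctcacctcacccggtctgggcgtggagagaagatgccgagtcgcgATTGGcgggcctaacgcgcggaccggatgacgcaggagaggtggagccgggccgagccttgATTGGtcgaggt
Sc4mol (RefSeq symbol Msmo1, chr8:64733579-64733828, minus strand) encodes a sterol demethylating oxidase and has 3 copies of the box, all on the strand of the gene. Its level was 60.6, 77.9 and 97.4 CPM in the control libraries and 22.8, 32.8 and 25.9 CPM in the Cre libraries (edgeR log2 fold change -1.55 with SE 0.16, adjusted p = 8.34e-06). Cyp51 (chr5:4104698-4104947, minus strand), lanosterol demethylase, has 1 box, and its level was 37.9, 46.1 and 58.6 CPM against 22.1, 22.2 and 21.3 CPM. Insig1 (chr5:28071162-28071411, plus strand) holds SREBP in the endoplasmic reticulum when sterols are plentiful, has 1 box on the other strand, and stood at 13.8, 30.5 and 16.5 CPM against 5.80, 5.79 and 7.58 CPM. Hsd17b7 (chr1:169969206-169969455, minus strand), an enzyme of the late pathway, has 3 boxes on the other strand and stood at 29.8, 40.2 and 52.8 CPM against 25, 13.3 and 17.8 CPM. In these 4 genes every Cre library was under every control library. Reads at these sites were not measured, and a match is a description of the sequence.

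Other lipid steps moved less. Of 32 phospholipid and triglyceride synthesis genes 2 rose and 3 fell, beside 5.62% higher and 3.38% lower over all tested genes. The lower count was 1 without library 7, the lower calls were lost without library 9 or 12, and 5 were lower with DESeq2. The 2 that rose were Agpat3, a lysophosphatidic acid acyltransferase, and Etnk1, an ethanolamine kinase. Agpat3 read 129, 124 and 140 CPM in the control libraries and 367, 202 and 253 CPM in the Cre libraries (edgeR log2 fold change 1.07 with SE 0.15, adjusted p = 0.000164). Nceh1, a cholesteryl ester hydrolase, fell by 0.69 (SE 0.11). Among 27 autophagy genes 4 rose, 2 without library 10. They included Atg2a and Atg2b, paralogs that move lipid to growing autophagosomes (log2 fold changes 0.88 and 0.78, SE 0.14 and 0.13). Tfeb, a master regulator of lysosome genes, fell by 0.58 (SE 0.13, adjusted p = 0.00596, edgeR).

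**Figure D2:**
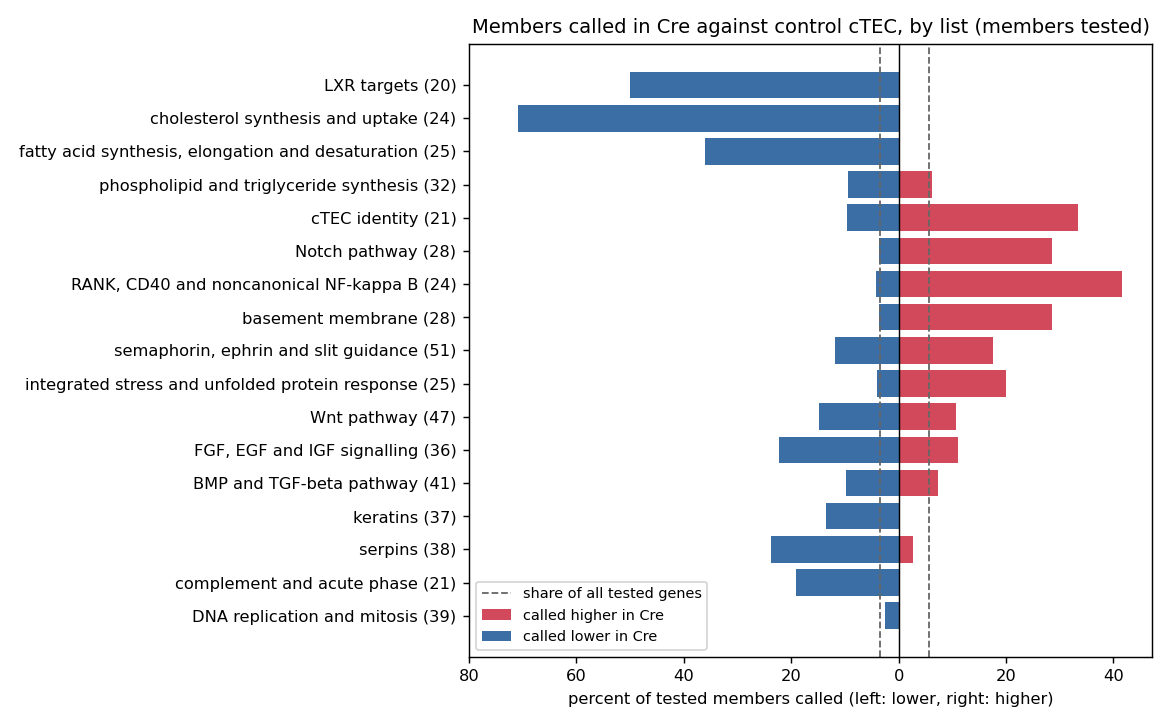
Percent of tested list members called higher (right) or lower (left) in Cre against control cTEC, with the number tested in brackets; dashed lines are the shares of all tested genes, 5.62% higher and 3.38% lower. The 3 lipid lists at the top have calls in the lower direction alone in this fit (1 LXR target is higher with RLE factors, with voom or with 5 CPM in 3 libraries), and the list of RANK, CD40 and NF-kappa B genes has 10 of 24 higher.

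Several genes of Notch signalling rose. Of 28 tested, 8 rose and 1 fell, beside 5.62% higher and 3.38% lower over all tested genes. The median log2 fold change was 0.25 (all genes -0.02). The lower call was lost without library 7 or 12, and 2 were lower without library 11. The receptor gene Notch3 stood at 4.48, 6.37 and 9.53 CPM in the control libraries and 25.9, 32 and 24.3 CPM in Cre, with library 11 the highest (edgeR log2 fold change 1.98 with SE 0.21, adjusted p = 7.84e-06). Notch2 stood at 79.4, 95.3 and 61 CPM against 184, 153 and 134 CPM. The target gene Heyl, a transcriptional repressor, stood at 14.1, 22.9 and 37.1 CPM against 85.3, 61.4 and 75.5 CPM. Dtx4, a Deltex-family ubiquitin ligase, rose by a log2 fold change of 1.01 (SE 0.15). Notch2, Notch3 and Heyl all had higher levels in control mTEC (at least 232, 37.4 and 139 CPM) than in any control cTEC library. The part of mTEC RNA in these calls was not tested.

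The RANK, CD40 and noncanonical NF-kappa B list had 10 higher and 1 lower of 24 (median 0.20), beside 5.62% and 3.38% of all genes. Without library 10 there were 6 higher, and the lower call was lost without library 8, 10 or 11. Map3k14, the NF-kappa B inducing kinase, was at 36.7, 39.5 and 40.5 CPM in the control libraries and 88.6, 62.1 and 68.5 CPM in the Cre libraries (edgeR log2 fold change 0.91 with SE 0.13, adjusted p = 0.000139). Its brake Traf3 rose too, with 74.9 to 78.6 CPM in the control libraries and 108 to 148 CPM in Cre, and so did Tnfaip3, the deubiquitinase A20 (71.4 to 81.9 against 110 to 143 CPM). Tnfrsf11a, the receptor RANK, stood at 18.1 to 21.9 against 29.6 to 42.3 CPM, and at 389 to 444 CPM in control mTEC. Tnfrsf11a and Cd40 are also among the 15 mature mTEC markers, whose median log2 fold change given above was -0.75. Aire, another of these markers, which switches on tissue antigens in mTEC, was at 9.88 to 10.8 CPM in the control libraries and 2.90, 9.46 and 4.81 CPM in the Cre libraries, and did not pass (adjusted p = 0.0848, edgeR). The part of mTEC RNA in these calls was not tested.

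Adhesion and basement membrane genes changed in both directions. Of 28 basement membrane genes 8 rose and 1 fell (median 0.18), beside 5.62% and 3.38% over all tested genes. In this list 4 were higher without library 9, 10 or 12, and 2 were lower without library 11. Lamc1, the laminin gamma 1 chain, was at 113 to 136 CPM in the control libraries and at 237, 196 and 180 CPM in Cre, and Lama5, an alpha chain that pairs with it, was at 36 to 51.1 and 59.6 to 82.6 CPM. Nid2, nidogen 2, rose by a log2 fold change of 0.66 (SE 0.14). The gene that fell was Col17a1, a hemidesmosome collagen of basal epithelium, from 110, 81.2 and 88.2 CPM to 43.2, 48.4 and 50.6 CPM (edgeR log2 fold change -0.98 with SE 0.15, adjusted p = 0.000295). Itga6, the integrin chain of the same hemidesmosomes, went from 683 to 798 CPM to 485 to 539 CPM.

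Tln1 and Mmp9 were among the most abundant genes that rose at least 2-fold. Tln1, talin, which links integrins to actin, stood at 208, 217 and 183 CPM in the control libraries and 456, 403 and 366 CPM in the Cre libraries (edgeR log2 fold change 1.01 with SE 0.12, adjusted p = 2.99e-05). Mmp9, a secreted gelatinase, stood at 104 to 150 and 282 to 444 CPM. For Tln1 and Mmp9 every Cre library was above every control, with library 10 the highest.

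The semaphorin, ephrin and slit list had 9 higher and 6 lower of 51 (median 0.06). Of those that rose, the semaphorin receptor gene Plxnb1 stood at 252, 230 and 205 CPM in the control libraries and 715, 435 and 513 CPM in the Cre libraries (edgeR log2 fold change 1.28 with SE 0.15, adjusted p = 2.8e-05), and Plxnd1 at 22.1 to 23.2 and 47.2 to 52.8 CPM. Of those that fell, the ephrin receptor gene Epha3 was at 105, 73.7 and 81.9 CPM in the control libraries and 37.8, 45 and 29.1 CPM in Cre, and Ephb3, another, fell by 0.85 on the log2 scale (SE 0.13). Epithelial junction genes had 2 higher and 4 lower of 35, with 5 higher without library 11 and 7 lower with DESeq2. Over all tested genes 5.62% were higher and 3.38% lower, so the higher count of the junction list was near that share. Cldn1, a tight junction claudin, fell by 0.87 (SE 0.13), and Gja1, connexin 43, by 0.57 (SE 0.11).

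Growth factor lists held changes in both directions. In the Wnt list 5 of 47 rose and 7 fell (median -0.01), beside 5.62% higher and 3.38% lower over all tested genes. Of the Wnt genes 2 were higher without library 9 and 3 without library 10, and 4 were lower without library 7 or 8. The genes lower in Cre included the secreted Dickkopf family member Dkk3 (132, 78.9 and 97.4 CPM in controls, 29.1, 35.7 and 33.2 CPM in Cre), the ligand Wnt6 (39.8 to 53.7 and 21.8 to 24.9 CPM) and the feedback inhibitor Nkd1 (61.6 to 68.2 and 32.2 to 38 CPM). Axin2, another feedback gene of the pathway, rose (edgeR log2 fold change 0.98 with SE 0.18, adjusted p = 0.00137). Wnt feedback genes thus differed in direction, and no library overlapped for any of these 4 genes.

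In the FGF, EGF and IGF list 4 of 36 rose and 8 fell (median -0.13), with 5 lower without library 7, 8 or 10. Igfbp3, an IGF binding protein, went from 636, 567 and 522 CPM in controls to 173, 203 and 220 CPM in the Cre libraries (edgeR log2 fold change -1.53 with SE 0.12, adjusted p = 2.73e-07). Its relative Igfbp2 went from 289 to 333 CPM to 163 to 175 CPM. Igf2r, the receptor that clears IGF2, rose from 40.1 to 48.6 CPM to 73 to 98.3 CPM. In the BMP and TGF-beta list 3 of 41 rose and 4 fell, beside 5.62% higher and 3.38% lower over all tested genes. Of its members 1 was higher without library 9 or 10 and 5 without library 11. The lower count was 1 without library 7, 2 without library 9 or 10 and 7 without library 11. Fst, the activin trap follistatin, fell by 1.05 (SE 0.14) and the ligand Bmp7 rose by a log2 fold change of 0.67 (SE 0.14). Gas1, a membrane co-receptor for hedgehog, was among the most abundant genes that fell, from 3020, 2450 and 2490 CPM to 1070, 1420 and 1360 CPM.

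Several basal keratins and matrix proteoglycans fell as well. Of 37 tested keratins 5 fell and 32 did not pass (median -0.74), and over all tested genes 3.38% fell and 5.62% rose. Without library 11 the keratins had 10 lower and 2 higher, and with voom 9 lower and 2 higher. Krt5 and Krt14, the keratin pair of basal epithelium, went from 1360 to 1510 CPM to 774 to 935 CPM and from 862 to 1040 CPM to 427 to 442 CPM. Krt15, a keratin of basal progenitors, went from 73.7, 38.4 and 56.9 CPM to 6.81, 26.8 and 8.74 CPM, with library 11 between the other Cre libraries and the controls (edgeR log2 fold change -2.08 with SE 0.32, adjusted p = 0.000331). Krt19 fell by 1.70 (SE 0.22). Dcn, the proteoglycan decorin, went from 2320 to 2730 CPM to 1010 to 1360 CPM, and Fmod, fibromodulin, fell by 1.24 (SE 0.17). Markers of other epithelium moved with this group. The summed level of 8 immature mTEC markers, Krt14 and Krt15 among them, was 4570 to 4820 CPM in control libraries and 3420 to 3940 CPM in Cre. That of 6 mesothelial markers, Krt19 among them, was 264 to 362 CPM in control libraries and 102 to 162 CPM in Cre. Of 12 fibroblast markers 2 rose and 1 fell, the proteoglycan gene Lum, and their sums overlapped between the groups as given above. The part of such cells in these changes was not tested.

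Serpins, mostly protease inhibitors, had 9 lower and 1 higher of 38 (median -0.48), with Serpinb5, maspin, at 146 to 164 CPM in the control libraries and 64.1 to 76.5 CPM in Cre. Of 21 complement and acute phase genes 4 fell and 17 did not pass (median -0.40), with 7 lower without library 11. Serping1, the C1 inhibitor, went from 192, 171 and 143 CPM to 54, 93.6 and 75.3 CPM (edgeR log2 fold change -1.19 with SE 0.17, adjusted p = 0.000132), and Clu, clusterin, fell by 0.78 (SE 0.12). Among 70 interleukin and receptor genes 3 rose and 5 fell, with 6 higher without library 11. Over all tested genes 5.62% rose and 3.38% fell. Il17re, the receptor chain for IL-17C, went from 104 to 128 CPM to 47.5 to 59.6 CPM, and Il1rn, the IL-1 receptor antagonist, fell by 1.63 (SE 0.24).

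Amino acid stress and vitamin A genes each had a few called members, where over all tested genes 5.62% were higher and 3.38% lower. The integrated stress and unfolded protein response list had 5 higher and 1 lower of 25 (median 0.16), the lower call being lost without library 7 or 10. Fgf21, a stress-induced hormone, was at 2.24, 2.51 and 2.28 CPM in the control libraries and 8.48, 11.8 and 9.04 CPM in the Cre libraries (edgeR log2 fold change 2.03 with SE 0.23, adjusted p = 1.9e-05), against 198 to 220 CPM in control mTEC. Trib3, a pseudokinase of the same response, was at 3.44 to 3.85 and 7.33 to 8.93 CPM, and Mthfd2, a mitochondrial folate enzyme, was at 3.62 to 6.03 and 8.10 to 10.1 CPM. In the retinoid list 4 of 26 rose and 2 fell, with 1 lower without library 7, 8, 9 or 10. Lrat, which stores retinol as esters, was at 2.28 to 4.86 CPM in the control libraries and at 9.04, 8.30 and 34.7 CPM in Cre, so library 12 set its mean (edgeR log2 fold change 2.43 with SE 0.47, adjusted p = 0.00203; 1.44 and 0.00569 without library 12). Rarb, a retinoic acid receptor that is itself induced by retinoic acid, was at 5.51 to 10.5 and 17.6, 15.2 and 39.9 CPM, again highest in library 12. Aldh1a1, an enzyme that makes retinoic acid, fell from 290, 201 and 197 CPM to 82.8, 93 and 112 CPM.

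The 20 genes with the largest increases among those called with at least 5 CPM on average and no overlap between the groups all changed by at least 1.67 on the log2 scale. Sec14l5, a lipid transfer family gene, read 2.07, 3.69 and 1.99 CPM in the control libraries and 22.8, 7.91 and 14.9 CPM in the Cre libraries (edgeR log2 fold change 2.60 with SE 0.33, adjusted p = 5.99e-05). Atp7b, a copper exporter, read 11.9, 16.2 and 14.2 CPM and then 75.8, 43 and 70.5 CPM, and only 2.07 to 3 CPM in control mTEC. Rnf183 (a ubiquitin ligase), Smtnl2 and Cdhr1 (a cadherin family member) rose by log2 fold changes of 2.27, 2.20 and 2.05 (SE 0.32, 0.23 and 0.17). In 13 of the 20, library 11 lay between the controls and the other Cre libraries, and in 14 library 10 was the highest Cre library. Over all 971 genes called higher these counts were 455 and 761. The 20 were picked for no overlap, which by itself puts library 11 above every control. In 17 of the 20 the mTEC controls had a higher mean than the cTEC controls. The 20 largest decreases changed by at least 1.79 and included Ism1, a secreted isthmin, at 15.6 to 19.5 CPM in the control libraries and 2.34, 3.67 and 3.79 CPM in the Cre libraries (edgeR log2 fold change -2.48 with SE 0.28, adjusted p = 1.73e-05). Fewer cells of a type and less RNA per cell cannot be told apart in such bulk samples.

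Library 11 shared part of this pattern. Its median distance from the mean of its group was 0.321 on the log2 scale over tested genes, whereas library 10 had 0.266, library 12 had 0.174 and 0.128 to 0.183 were found in the other libraries of the series. To see where each library lay, it was left out, genes were called in the rest, and its level was placed on a scale on which 0 is the mean of the controls and 1 the mean of the remaining Cre libraries. On the 2294 genes called without it (13.1% of 17547 tested), library 11 had a median place of 0.55, with quartiles at 0.12 and 0.89. Library 10 had a median of 1.23 on 1019 genes and library 12 of 0.76 on 1303, while the controls 7, 8 and 9 had medians between 0 and 0.20. Of the genes called without it, 53.5% had library 11 past the midpoint and 19.8% had it at or beyond the control mean, whereas the shares were 89.4% and 2.45% in library 10, and 82% and 1.30% in library 12. Calls made with and without library 11 shared 1429 genes, all in the same direction; 126 were called with it alone and 865 without it alone.

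**Figure D3:**
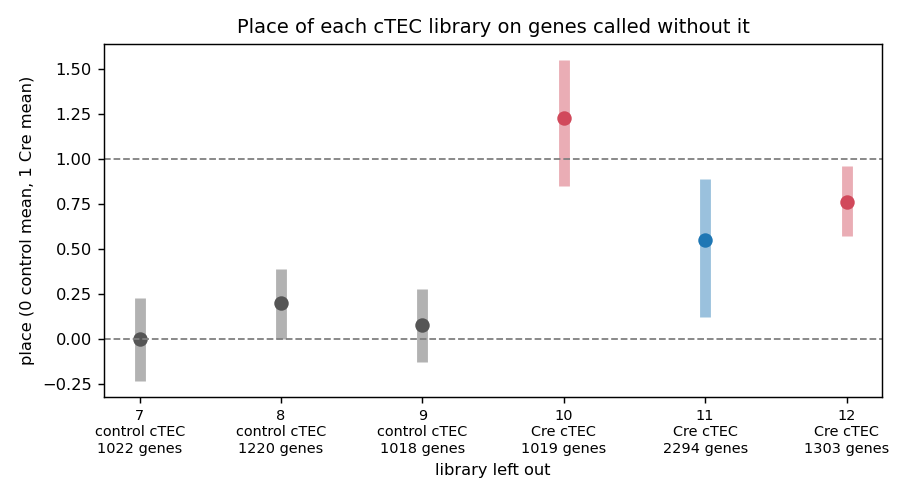
Place of each cTEC library on the genes called in the fit that leaves it out: 0 is the control mean and 1 the Cre mean in log2(CPM + 0.5); points are medians and bars run between quartiles. Library 11 (median 0.55) spans the range between the groups, whereas library 10 (1.23) and library 12 (0.76) lie near the Cre mean.

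Gene groups differed in where library 11 fell. For the cholesterol genes called without it the median place was 1.21 and 13 of 13 were past the midpoint. For LXR targets it was 1.02 (9 of 9), for fatty acid synthesis 0.91 (8 of 8), for Wnt genes 0.92 (11 of 13) and for basement membrane genes 0.89 (7 of 9). Notch genes stood at 0.78 (6 of 11). At the other end were cTEC identity genes at 0.04 (1 of 15), immediate early genes at -0.05 (1 of 14), MHC class I presentation at 0.08 (1 of 4), MHC class II presentation at 0.13 (1 of 4), the proteasome at 0.09 (1 of 6) and keratins at 0.08 (4 of 12). Other lipid lists lay lower than the first 3: phospholipid and triglyceride synthesis at 0.55 (4 of 6), oxysterol and steroid enzymes and carriers at 0.49 (3 of 6), and fatty acid oxidation and PPAR targets at -0.06 (1 of 4). Places near 1 were not limited to sterol lists: lysosome and cathepsin genes stood at 1.22 (3 of 4) and glycolysis and hypoxia genes at 1.00 (3 of 5). Library 11 was thus on the Cre side for genes of cholesterol synthesis and for some lists outside lipid metabolism, but not for every lipid list. It was on the control side for cTEC identity genes. List members were chosen with earlier results of these data known, so the places by list are descriptions. The part of transcript length in these places was not tested.

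**Figure D4:**
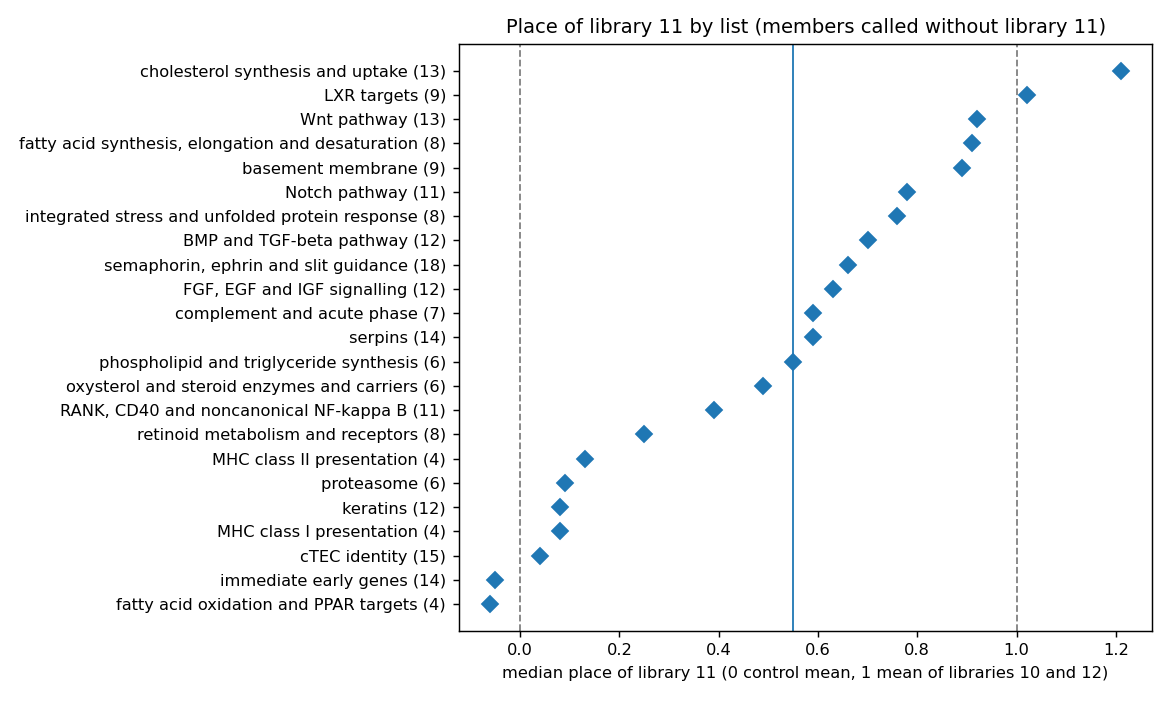
Median place of library 11 for the list members called in the fit without it (number in brackets); 0 is the control mean, 1 the mean of libraries 10 and 12, and the solid line the median over all 2294 genes (0.55). The cholesterol (1.21), LXR target (1.02) and fatty acid synthesis (0.91) lists lie near 1 and fatty acid oxidation (-0.06) near 0, as do cTEC identity (0.04) and immediate early genes (-0.05). Some lists are not shown, among them lysosome and cathepsins (1.22) and glycolysis and hypoxia (1.00).

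The cTEC identity list shows the split gene by gene. With all libraries 7 of 21 rose and 2 fell (median 0.46), beside 5.62% and 3.38% over all tested genes. The higher count was 3 without library 7, 9 or 10, 4 without library 12 and 14 without library 11, and the lower count was 1 without library 8, 9, 10, 11 or 12. With voom 12 were higher, with the robust fit 3 and with no filter on low counts 14. Tbata, a thymus and brain gene, read 653, 797 and 689 CPM in controls, 2230 and 1740 CPM in Cre libraries 10 and 12, and 817 CPM in library 11 (edgeR log2 fold change 1.16 with SE 0.23, adjusted p = 0.00222). Prss16, a serine protease of class II peptide processing, read 1770, 2260 and 1750 CPM in controls, 5470 and 3670 CPM in libraries 10 and 12, and 1980 CPM in library 11. Its adjusted p was 0.0191 with all libraries and 0.000163 without library 11, and the call was lost by the robust fit and without library 7, 9 or 10 (log2 fold change 0.94, and 0.56 without library 10). Psmb11 read 253, 434 and 370 CPM in controls, 993 and 721 CPM in libraries 10 and 12, and 370 CPM in library 11. Its call (log2 fold change 0.98, adjusted p = 0.0363, edgeR) was lost without library 7, 9, 10 or 12, with DESeq2 and with the robust fit, with 0.63 without library 10. Dll4, the Notch ligand for thymocytes, read 31, 68.5 and 52.9 CPM, then 157 and 118 CPM, and 64.1 CPM in library 11 (log2 fold change 1.16, adjusted p = 0.00653, edgeR; 0.088 with the robust fit). Ly75, an endocytic receptor, stood at 636 CPM in library 11, above the controls (408 to 514 CPM) and under libraries 10 and 12 (1390 and 812 CPM), with a log2 fold change of 0.99 that was 0.60 without library 10.

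Immediate early genes, which answer within minutes to signals and to handling, had 2 of 25 higher with all libraries, and 13 higher and 1 lower without library 11. The higher count was 1 without library 10, and the calls were lost by the robust fit and without library 7 or 9, while voom called 12 higher. Their summed level was 7800, 9480 and 9430 CPM in controls, 13800 and 12700 CPM in libraries 10 and 12, and 8070 CPM in library 11. MHC class II presentation had 1 of 13 higher (4 without library 11 and with voom; the call was lost without library 7, 9, 10 or 12) and MHC class I presentation 2 of 19 (4 without library 11, 1 without library 7, 9, 10 or 12). The proteasome had 3 of 46 higher, 6 without library 11 and 1 without library 7, 9, 10 or 12. With all libraries 5.62% of all tested genes were called higher. The immediate early, MHC class II, MHC class I and proteasome lists had 8%, 7.69%, 10.5% and 6.52%. These lists gained calls when library 11 was left out and lost them when library 7, 9 or 10 was. All tested genes together moved the same way, from 971 higher to 1436 without library 11. Without library 7, 9 or 10 they had 661, 607 or 599 higher.

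Over single genes, 412 of the 1406 genes called higher without library 11 with at least 5 CPM on average (29.3%) had library 11 within the controls or beyond them. For genes called lower the count was 85 of 579 (14.7%). Krt6a, a keratin of stressed and outer epithelium, was one of these, at 17.7, 8.38 and 4.69 CPM in controls, 1.90 and 1.46 CPM in libraries 10 and 12 and 36.7 CPM in library 11.

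In library 11, 94 genes stood at least 2-fold above each of the other 5 cTEC libraries, whereas a single library among those 5 had 3 to 23 such genes. Those with the widest gap to the other libraries include genes that encode proteins of the outer, cornifying layers of skin. Klk10, a kallikrein protease, read 155 CPM in library 11, 0.335 to 0.995 CPM in the other 5 and 1.20 to 4.56 CPM in the 6 mTEC libraries. Klk6 read 45.2 CPM against 0.284 to 1.34 CPM, and 7.20 to 16.1 CPM in mTEC, and Cst6, a cysteine protease inhibitor of the cornified layer, read 195 CPM against 5.68 to 7.43 CPM, and 19.2 to 43 CPM in mTEC. Cdsn, which glues corneocytes together, read 28 CPM, and Klk7, which cuts it, 35.5 CPM, against at most 9.68 and 21.1 CPM in mTEC. Of the 94 genes 75 were above all 6 mTEC libraries, and 40 averaged more in control mTEC than in any of the other 5 cTEC libraries. Asprv1, a skin protease, was under the mTEC range, at 29.1 CPM against 37.8 to 80.5 CPM.

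Klk10, Klk6 and Cst6 were called higher with all libraries (adjusted p = 0.0147, 0.0363 and 0.0218, edgeR). Without library 11 their log2 fold changes were -0.54, -0.74 and 0.06 in place of 6.05, 4.43 and 3.33, and none passed. The calls were also lost without library 7, 8 or 9, with voom and with the robust fit, and the call for Cst6 in the fit to the 6 cTEC libraries. The summed level of 12 keratinised mTEC markers, which hold none of the 94 genes, was 114 CPM in library 11 and 116 to 131 CPM in the controls, against 75.3 and 79.7 CPM in libraries 10 and 12. The mature mTEC sum of library 11, 158 CPM, lay between those of libraries 12 and 10. The origin of the RNA of the 94 genes in library 11 was not tested, and the keratinised marker sum was not above the controls.

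**Figure D5:**
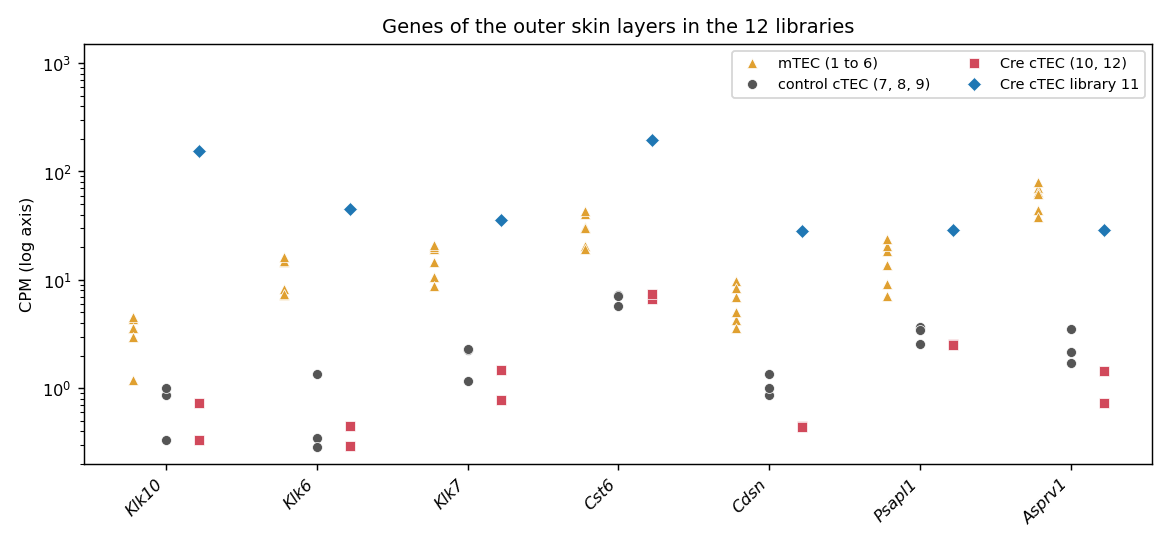
Levels in CPM (log axis) of 7 genes of outer skin layers in the 12 libraries; triangles are the 6 mTEC libraries, circles the control cTEC, squares Cre cTEC libraries 10 and 12 and the diamond library 11. Library 11 is above every other library for Klk10 (155 CPM) and Cst6 (195 CPM), and under the mTEC libraries for Asprv1 (29.1 CPM).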

How the data were processed

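RNA of sorted cTEC and mTEC was made into libraries with a SMARTer kit for low input (version 4, as the labels' protocols give it). It leaves strand unmarked, so overlapping and near-identical genes are uncertain. The authors deposited raw read counts per gene symbol for 12 libraries. STAR, HTSeq, edgeR and the build mm9 were used per the submitters' processing notes; their versions and the annotation were not given in the sources used here. No column of samples was left out. No gene coordinates are given, since the annotation at hand is on another build; it gave transcript lengths for 98% of tested genes, and promoter windows come from RefSeq on GRCm38.p6.

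Groups follow the labels. Genes were tested two-sided by quasi-likelihood in edgeR 4.0.16 under R 4.3.3, with TMM scaling, filterByExpr by group, 1 fit of 4 groups over 12 libraries (8 residual df), and called at a Benjamini-Hochberg adjusted p under 0.05. CPM were computed from the deposited counts with TMM factors. Total counts per library ran from 4804697 to 11159013, and 1 count was 0.0896 to 0.193 CPM. Other settings were RLE factors in edgeR, the DESeq2 test (1.42.0), voom with sample weights (limma 3.58.1), robust estimation, no filter, 5 CPM in 3 libraries, the 6 cTEC libraries alone, and each cTEC library left out. The fit was tested on simulated data.

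The members, 61 lists and families and tests were chosen with earlier results of these data known. Named genes were up to 20 with the largest fold in each direction with at least 5 CPM and no overlap, the 12 most abundant with at least a 2-fold change, the 4 smallest p in each list, up to 12 in each direction and class for library 11, and 12 fixed genes. Insig1 and Hsd17b7 (by the promoter rule) and Aire were named after their values were seen. Some genes are not reported here, nor is a repeat that was searched as the LXR element with a wrong spacing. Places use log2(CPM + 0.5).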

Additional observations from a re-analysis of the deposited data

Results flagged for a closer look

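The effect of genotype in cTEC was set against the effect in mTEC by an interaction term in the same edgeR fit, and 692 of 17268 genes passed (4.01%). Of the genes named with a test in the text, 49 passed, and the values given are the log2 fold change in cTEC minus that in mTEC.

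Of the named lipid genes that fell, 8 fell further in cTEC than in mTEC: Scd2 -1.03, Abcg1 -1.49, Srebf1 -1.13, Mid1ip1 -1.38, Fdft1 -1.41, Sc4mol -0.89, Acsl3 -0.97 and Nceh1 -0.59. For others the difference did not pass, with Abca1 at -0.20 (adjusted p = 0.746, edgeR), Fdps at -1.15 (0.124), Fads2 at -0.90 (0.125), Cyp51 at -0.75 (0.0633), Insig1 at -0.85 (0.318) and Hsd17b7 at -0.24 (0.787). Scd2 fell in both cell types, by 4.07 in cTEC and by 3.05 in mTEC.

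Among genes higher in Cre cTEC the differences were Lrat 3.17, Sec14l5 2.92, Rnf183 2.28, Fgf21 2.20, Atp7b 2.00, Trib3 1.94, Notch3 1.91, Cdhr1 1.87, Smtnl2 1.85, Dll4 1.77, Tbata 1.69 and Plxnd1 1.68. Further differences were Heyl 1.42, Plxnb1 1.27, Ly75 1.19, Tln1 1.15, Lama5 1.13, Agpat3 1.12, Map3k14 1.11, Notch2 1.06, Atg2b 1.00, Mmp9 1.00, Igf2r 0.96, Atg2a 0.95, Traf3 0.92, Tnfrsf11a 0.86 and Tnfaip3 0.62. Trib3 and Plxnd1 fell in mTEC by 0.76 and 0.53.

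Among genes lower in Cre cTEC the differences were Ism1 -2.49, Epha3 -1.42, Dkk3 -1.41, Nkd1 -1.35, Dcn -1.29, Igfbp3 -1.24, Gas1 -1.19, Igfbp2 -1.14, Il1rn -1.12, Krt14 -1.02, Fst -1.02, Wnt6 -1.01, Ephb3 -0.83 and Clu -0.71. Ism1 had a log2 fold change of -2.48 in cTEC and 0.01 in mTEC.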

How the results depend on the processing

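The number of called genes was 1555 with 971 higher and 584 lower. Leaving out 1 library gave between 1018 and 2294 calls, 599 to 1436 higher and 361 to 858 lower. It was 1022 without library 7, 1018 without library 9 (607 higher) and 1019 without library 10 (599 higher), and 361 were lower without library 7. By voom 877 were lower. The other alternatives stayed within 1.5 times of these counts. Of 83 genes named with a passing test, 76 kept direction and call in all 13 alternatives that tested them. Reversed signs were those of Nr1h3 without library 9 (from -0.02 to 0.44 over the libraries left out), Klk10 without library 11 (from -0.54 to 6.65) and Klk6 without library 11 (from -0.74 to 5.45) and with voom (-0.03). Counts by list stayed within 1.5 times in 581 cases and moved further in 173; the cause was not tested. The median distance of library 11 from its group was 0.295 with RLE factors in edgeR, an alternative chosen after seeing the data. No paired analysis was possible because no replicate number is shared between groups. With 3 libraries a group, a gene that did not pass is not shown to be unchanged. Library 11 had the least depth (1 count was 0.193 CPM), and, lacking molecular identifiers, reads may repeat a molecule.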

Other observations

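Gene families not described above held scattered calls, some in shares near those over all tested genes (5.62% higher and 3.38% lower) and some further off. Of 41 ADAM and ADAMTS genes 7 rose and 3 fell, with 2 higher without library 7 or 8. Of 41 nuclear receptors 2 rose and 5 fell, with 2 lower without library 7. Of 68 ribosomal protein genes 0 were called. Of 326 solute carriers 21 rose and 15 fell (median -0.07); leaving out library 7 gave 13 higher and 7 lower, and 12 or 34 were higher without library 10 or 11. Of 114 potassium, sodium and calcium channel genes 8 rose and 1 fell, with 4 higher without library 7 and 5 without library 9 or 10; the lower call was lost without library 7, 9 or 10, and 4 were lower without library 11. Of 354 Zfp genes 15 rose and 2 fell, with 6 higher without library 10 and 23 without library 11, and 1 lower without library 7, 10 or 12. Of 78 oxidative phosphorylation genes 1 rose, also without each library in turn but not with DESeq2. Of 39 DNA replication and mitosis genes 1 fell; the call was lost without library 7, 8, 11 or 12, and 3 fell without library 10.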
